A study of Mus musculus with 36 samples.

Results

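The members described here are 10 genes whose products carry bile acids and the other main constituents of bile into and out of hepatocytes: Slc10a1, Slco1a1 and Slco1b2 (uptake from blood), Abcb11, Abcb4, Abcc2 and Atp8b1 (canalicular membrane), and Abcc3, Abcc4 and Slc51b (export back to blood). They were taken by gene symbol from the deposited expression table, which held 1 row for each of the 10 among 49315 genes, and not by any measured value. All 10 were among the 16638 genes that passed the filter for testing (at least 1 TPM in at least 4 libraries). The polyA RNA libraries came from liver of 36 male mice, 11 to 12 weeks old, 4 in each of 9 groups. CRISPR had been used to replace tryptophan 441 of the nuclear receptor LXRalpha by phenylalanine, and homozygous controls (W/W), heterozygotes (W/F) and homozygous mutants (F/F) were compared. Each genotype was kept on chow, or was fed a diet (Teklad TD.96121) meant to bring on metabolic dysfunction-associated steatohepatitis (the MASH diet) for 4 weeks with daily gavage over the last 2 weeks of vehicle or of T0901317 at 10 mg/kg. T0901317 is a synthetic agonist of LXR. The chow mice formed a cohort of their own and are not described as gavaged, so diet, gavage and cohort cannot be told apart in any comparison with chow. The mutation is in the germ line, so all cells of the liver carried it, and the strain and the number of founder lines are not given in the sources used here. The submitters call the LXRalpha gene Nr1h2, although its usual symbol is Nr1h3. Nr1h3 lay between 79.1 and 124 TPM in all 36 libraries, which says nothing about the exchange of a residue.

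Hepatocytes take up conjugated bile acids from blood at the sinusoidal membrane mainly through the sodium-dependent transporter NTCP (Slc10a1) and through the organic anion transporters OATP1A1 (Slco1a1) and OATP1B2 (Slco1b2). The bile salt export pump (Abcb11) then drives bile salts into the canaliculus, where the phosphatidylcholine floppase MDR2 (Abcb4), the conjugate pump MRP2 (Abcc2) and the aminophospholipid flippase FIC1 (Atp8b1) supply phospholipid, export organic anions and keep the membrane resistant to bile salts. Export back to blood runs through MRP3 (Abcc3), MRP4 (Abcc4) and the organic solute transporter, a dimer of an alpha and a beta subunit (Slc51a and Slc51b). In cholestasis the uptake genes are known to be repressed and the sinusoidal exporters induced. The bile acid receptor FXR (Nr1h4) is a known activator of Abcb11 and Slc51b.

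Depth, recovered from the step between low values, was 18069051 to 35818103 reads per library. Nothing in the labels says more of the replicates than that they are separate samples, so the p-values measure the spread between these livers. Differences are given as log2(TPM + 1), tested with limma on all 36 libraries and adjusted by Benjamini-Hochberg over the 16638 genes, with 0.05 as the threshold. TPM are relative to the total of a library, and the median gene was higher by 0.52 (log2) in W/F and by 0.70 in F/F than in W/W on vehicle. It was also higher by 0.29 in F/F than in W/W on chow. All differences were therefore tested in the deposited TPM and again after rescaling each library so that the median gene is level. Values are those of deposited TPM unless they are called rescaled.

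The 10 genes lie at 10 separate loci of GRCm38, of which only Slco1a1 (chr6:141907282-141946962, minus strand) and Slco1b2 (chr6:141629518-141686646, plus strand) are on the same chromosome. Abcb11 (chr2:69238282-69342616, minus strand) shares 3.01% of its exonic bases with genes on the other strand, among them the antisense gene Gm13613. Slc51b (chr9:65412714-65422955, minus strand) shares 12.8% of its exonic bases with Rasl12 on the other strand. Whether counting used strand is not given in the sources used here, so reads from these pairs could not be separated, but Rasl12 itself averaged 0.0694 to 0.407 TPM over the groups, highest in F/F on vehicle. Slco1a1 has 1.64% of its exonic sequence in common, in stretches of 50 bases, with other genes, first of all Slco1a4, Slco1a5 and Slco1a6. For Slc10a1 (chr12:80953183-80968705, minus strand) that share was 0.957%. Abcc4 is at chr14:118482692-118706219, Abcc3 at chr11:94343295-94392997, Abcc2 at chr19:43782192-43840740 and Abcb4 at chr5:8893717-8959231, and the remaining member, Atp8b1, is placed with its results.

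The 250 bases upstream of the start were read from the RefSeq promoter table (GRCm38.p6), and the window is shown for Slco1a1 and Slc51b, which moved furthest over the groups, and for Abcb11 and Slco1b2, which held an IR-1 match. Both strands were searched for the nuclear receptor half-site AGGTCA, present in 14.02% of the 32851 upstream windows of the table, and for its inverted repeat with 1 base between (IR-1, AGGTCANTGACCT, at most 2 mismatches), the arrangement known to be bound by FXR with RXR, present in 0.959%. The direct repeat with 4 bases between (DR-4, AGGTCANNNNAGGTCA, at most 2 mismatches), the arrangement known to be bound by LXR with RXR, was present in 2.57%. IR-1 and DR-4 matches contain the half-site where it is intact, so the searches overlap. In the Abcb11 and Slco1b2 windows the capitals mark the IR-1 match, each with 1 mismatch. In the Slco1a1 and Slc51b windows they mark half-sites, and that of Slc51b is the downstream part of a DR-4 match with 2 mismatches.
Abcb11, chr2:69342617-69342866, minus strand: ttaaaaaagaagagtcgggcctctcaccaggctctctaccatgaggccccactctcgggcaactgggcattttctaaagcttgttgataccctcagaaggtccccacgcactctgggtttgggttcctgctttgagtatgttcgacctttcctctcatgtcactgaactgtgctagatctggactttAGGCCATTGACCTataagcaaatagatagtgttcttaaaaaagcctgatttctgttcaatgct
Slco1b2, chr6:141629268-141629517, plus strand: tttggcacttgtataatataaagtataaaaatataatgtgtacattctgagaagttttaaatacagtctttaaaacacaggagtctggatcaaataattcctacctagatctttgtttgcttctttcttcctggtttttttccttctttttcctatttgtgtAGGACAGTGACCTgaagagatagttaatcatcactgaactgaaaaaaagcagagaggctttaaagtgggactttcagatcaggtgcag
Slco1a1, chr6:141946963-141947212, minus strand: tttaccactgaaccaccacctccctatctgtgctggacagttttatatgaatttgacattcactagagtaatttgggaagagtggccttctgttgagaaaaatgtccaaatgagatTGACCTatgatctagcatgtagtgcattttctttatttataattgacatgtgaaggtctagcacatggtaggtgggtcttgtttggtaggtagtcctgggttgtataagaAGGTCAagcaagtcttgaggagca
Slc51b, chr9:65422774-65423023, minus strand: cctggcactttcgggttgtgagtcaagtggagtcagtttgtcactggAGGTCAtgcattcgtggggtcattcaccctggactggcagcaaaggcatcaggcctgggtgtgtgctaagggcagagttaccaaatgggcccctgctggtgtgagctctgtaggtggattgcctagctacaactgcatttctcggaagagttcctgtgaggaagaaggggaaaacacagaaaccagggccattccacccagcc
The Abcb11 match began at position -63 and the Slco1b2 match at position -88 from the start, and the DR-4 match of Slc51b at position -213. No other window of a member held a DR-4 match. The windows of Abcb4 and Abcc4 held no half-site in these 250 bases, that of Abcc2 held 1, and of the 2 windows of Slc10a1 the downstream start had 1. These are matches of letters only. Windows were found for 8 of the 10 members.

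In W/W livers on chow the levels, which TPM make comparable between genes by correcting for length, ran from Slc10a1 (751 ± 159 TPM, SD, n = 4), Slco1b2 (481 ± 24.4) and Abcb11 (354 ± 55.7) through Slco1a1 (221 ± 23.5), Abcc2 (202 ± 27.0), Abcc3 (116 ± 20.4) and Abcb4 (59.3 ± 6.10) to Atp8b1 (16.8 ± 3.32). Abcc4 (1.64 ± 0.590) and Slc51b (1.28 ± 1.48) were lowest, at 51.3 to 118 and 1 to 18 recovered reads per library. Of these, Slc51b was close to the limit of detection. The ranges of neighbours in that order did not overlap except for Slco1a1 with Abcc2 and for Abcc4 with Slc51b. The members differed widely in how far they moved over the 9 groups. Group means of Slco1a1 spanned 83.2-fold, those of Slc51b 22.7-fold, of Abcc4 19.4-fold and of Slc10a1 8.51-fold, while the other 6 spanned 1.75-fold (Abcc2) to 2.82-fold (Abcb11).

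Over the 9 groups, with the means of chow, vehicle and T0901317 in that order, Slc10a1 averaged 751, 702 and 883 TPM for W/W, 656, 146 and 657 for W/F and 470, 104 and 269 for F/F (SD 24.2 to 173). Slco1a1 averaged 221, 174 and 57.2 TPM for W/W, 260, 3.13 and 105 for W/F and 101, 3.18 and 6.34 for F/F (SD 1.08 to 66.2). The means of Slco1b2 were 481, 488 and 398 TPM for W/W, 537, 259 and 383 for W/F and 451, 235 and 309 for F/F (SD 12.3 to 121). Each of these uptake genes had its 2 lowest means in the W/F and F/F vehicle groups. For the export pump Abcb11 the means were 354, 209 and 252 TPM for W/W, 304, 169 and 164 for W/F and 286, 126 and 161 for F/F (SD 16.4 to 78.6). Abcb4 had means of 59.3, 65.5 and 67.8 TPM for W/W, 77.8, 104 and 59.9 for W/F and 144, 89.0 and 93.6 for F/F (SD 6.10 to 39.1). For Abcc2 they were 202, 128 and 166 TPM for W/W, 194, 224 and 141 for W/F and 162, 148 and 193 for F/F (SD 13.4 to 53.0). Abcb11 was highest on chow in each genotype, Abcb4 highest in F/F on chow and Abcc2 highest in W/F on vehicle. Atp8b1 ran between narrow limits, with means of 16.8, 10.5 and 9.66 TPM for W/W, 13.3, 15.2 and 9.01 for W/F and 13.4, 13.1 and 10.6 for F/F (SD 0.776 to 3.32). Abcc3 reached 116, 135 and 155 TPM for W/W, 139, 207 and 238 for W/F and 153, 200 and 255 for F/F (SD 14.1 to 36.1). Both stayed within 2.21-fold over all groups. The low exporters covered wide ranges: Abcc4 averaged 1.64, 0.715 and 5.58 TPM for W/W, 0.641, 12.4 and 2.53 for W/F and 2.06, 5.74 and 6.57 for F/F (SD 0.0514 to 4.79), and Slc51b 1.28, 0.854 and 3.36 TPM for W/W, 1.08, 11.9 and 1.74 for W/F and 6.17, 19.4 and 12.0 for F/F (SD 0.402 to 6.94). W/F on vehicle was the highest group of Abcc4 and F/F on vehicle that of Slc51b.

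On the MASH diet with vehicle the 3 uptake genes were lower in both mutant genotypes than in W/W. Slc10a1 measured 649, 736, 666 and 759 TPM in the W/W vehicle livers, 167, 166, 130 and 121 TPM in W/F livers and 137, 88.5, 75.3 and 114 TPM in F/F. The mutant ranges stayed below the W/W range, with log2 differences of -2.27 ± 0.21 (SE, adjusted p = 1.75e-10) in W/F and -2.78 ± 0.21 (adjusted p = 9.59e-13) in F/F. As ratios of means Slc10a1 was 4.81-fold lower in W/F and 6.78-fold lower in F/F. Slco1a1 had the largest difference of the 10 members in both comparisons: 139, 210, 145 and 202 TPM in W/W against 5.01, 2.74, 1.76 and 3.00 TPM in W/F livers and 2.09, 4.41, 2.49 and 3.73 TPM in F/F. All 8 mutant livers held less than 6 TPM of this transporter of bile acids, steroid conjugates and other organic anions. The means were 55.6-fold and 54.8-fold lower, and the log2 differences were -5.44 ± 0.40 (adjusted p = 2.17e-12) and -5.40 ± 0.40 (adjusted p = 5.43e-13). Slco1b2 fell less, from 348, 487, 600 and 518 TPM in W/W to 259, 327, 247 and 204 TPM in W/F livers and 243, 229, 220 and 246 TPM in F/F. Its groups did not overlap either, and the differences were -0.90 ± 0.17 (adjusted p = 2.52e-05) and -1.03 ± 0.17 (adjusted p = 2.53e-06).

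The same 3 genes were lower after rescaling, by more: Slc10a1 by -2.93 in W/F and -3.63 in F/F, Slco1a1 by -6.00 and -6.11, and Slco1b2 by -1.56 and -1.88. These calls held in every alternative and without each library in turn.

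**Figure D1:**
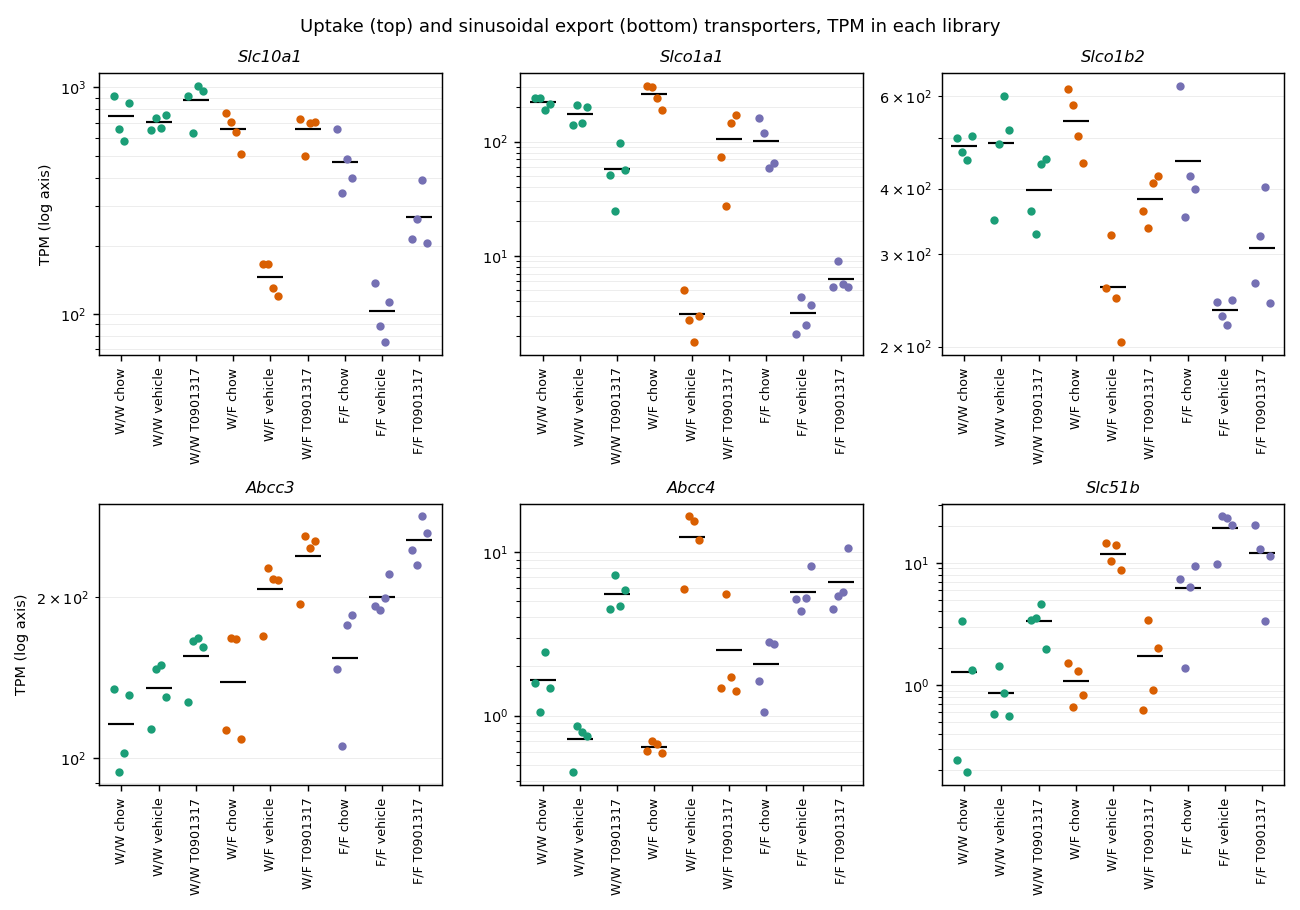
Deposited TPM (log axis) of the uptake genes Slc10a1, Slco1a1 and Slco1b2 (top) and of the sinusoidal exporters Abcc3, Abcc4 and Slc51b (bottom) in the 9 groups; each point is 1 library, each black line the mean of 4. On vehicle the W/F and F/F points lie below W/W in the top row and above it in the bottom row, and Slco1a1 drops to between 1.76 and 5.01 TPM in the mutants.

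Among the exporters, Abcc4 and Slc51b were higher in the mutants on vehicle in both scalings. Abcc4, a pump for bile acids and cyclic nucleotides at the sinusoidal membrane, measured 0.450, 0.866, 0.791 and 0.754 TPM in W/W, 5.93, 16.6, 15.5 and 11.8 TPM in W/F livers and 5.14, 4.34, 5.28 and 8.22 TPM in F/F. Every mutant liver exceeded every W/W liver, and the means were 17.4-fold and 8.03-fold higher. On the log2(TPM + 1) scale, which understates changes of such low genes, the differences were 2.89 ± 0.28 (adjusted p = 4.88e-10) and 1.95 ± 0.28 (adjusted p = 3.39e-07). Slc51b rose from 0.582, 1.43, 0.852 and 0.554 TPM in W/W, which rest on 4 to 10 recovered reads per library, to 14.6, 10.3, 13.9 and 8.69 TPM in W/F livers and 9.78, 24.0, 23.2 and 20.4 TPM in F/F. There was no overlap, and the differences were 2.79 ± 0.44 (adjusted p = 1.83e-06) and 3.41 ± 0.44 (adjusted p = 3.56e-08). Rescaled, Abcc4 differed by 2.45 and 1.38 and Slc51b by 2.34 and 2.76, all still called. The alpha subunit that Slc51b needs for transport, Slc51a, was listed at 0 in most libraries, did not exceed 0.107 TPM in any, and was not tested.

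Abcc3 behaved otherwise. It measured 114, 146, 149 and 130 TPM in W/W, 169, 226, 216 and 215 TPM in W/F livers and 192, 189, 199 and 220 TPM in F/F on vehicle. In deposited TPM it was higher in both mutants without overlap (0.61 and 0.57, adjusted p = 0.00116 and 0.00177), but the rescaled differences were -0.05 and -0.28, neither called. The median gene was 0.52 higher in W/F and 0.70 higher in F/F in deposited TPM.

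The canalicular members differed from W/W on vehicle by less than the uptake genes, and among them the lower call of Abcb11 in F/F was the only one that held in both scalings. Abcb11 measured 127, 266, 199 and 243 TPM in W/W, 152, 192, 181 and 149 TPM in W/F livers and 84.0, 159, 141 and 119 TPM in F/F on vehicle. The ranges overlapped, and the difference was -0.26 ± 0.22 in W/F (adjusted p = 0.315) and -0.71 ± 0.22 in F/F (adjusted p = 0.0053). Rescaled, the export pump was lower in both mutants, by -0.91 and -1.56, and its ranges separated. Abcb4 was higher in deposited TPM by 0.68 in W/F and by 0.45 in F/F, yet by 0.03, not called, and -0.40 after rescaling, so the higher call in F/F became a lower one (adjusted p = 0.023). The F/F call in deposited TPM was lost without F/F vehicle replicate 2 (0.37) or W/W vehicle replicate 1 (0.29). Abcc2 stood 0.79 higher in W/F (0.13 rescaled) and differed by 0.21 in F/F, a value not called, with -0.64 after rescaling, which was. Atp8b1 (chr18:64528967-64661267, minus strand) differed by 0.51 in W/F, a call lost without W/W vehicle replicate 1 (0.32), and by 0.31 in F/F, not called. Rescaled it differed by -0.09, not called, and by -0.47, called lower (adjusted p = 0.00601). No direction for Abcb4, Abcc2 or Atp8b1 on vehicle held in both genotypes and both scalings.

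**Figure D2:**
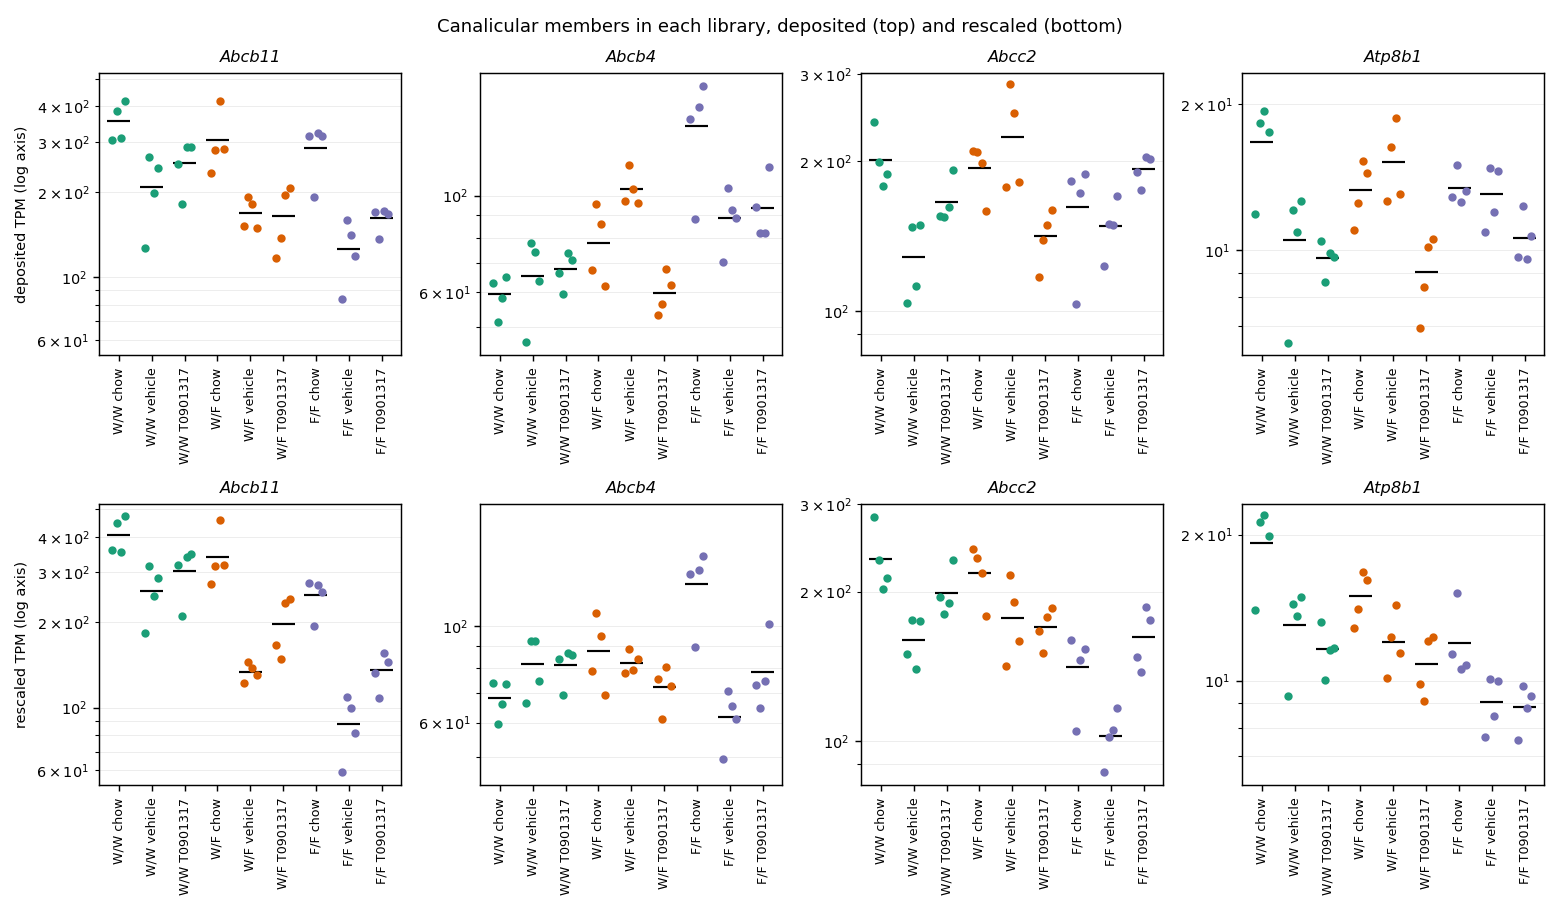
Deposited TPM (top) and rescaled TPM (bottom), both on log axes, of Abcb11, Abcb4, Abcc2 and Atp8b1 in the 9 groups; points are libraries and black lines means of 4. Abcb4 is highest in F/F on chow in both rows, whereas the vehicle groups of Abcb4, Abcc2 and Atp8b1 change their order between the rows.

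Counted over the members, 9 of 10 were called in W/F against W/W on vehicle, 6 higher and 3 lower, where 68.5% of all tested genes were called, 61.6% higher and 6.83% lower. In F/F against W/W on vehicle 8 of 10 were called, 4 in each direction, against 76.5% of all genes, 69.3% higher and 7.13% lower. The shares called in either direction are close to the background of these comparisons. Rescaling left 6 in W/F (2 higher, 4 lower, background 53.1% of all genes, with 27.8% higher and 25.3% lower) and 9 in F/F (2 higher, 7 lower, background 59.0% of all genes, with 31.3% higher and 27.7% lower). The median member differed by 0.56 in W/F and 0.26 in F/F, beside 0.52 and 0.70 for the median gene. Ranges did not overlap with W/W for 9 of 10 members in W/F, beside 60.4% of all genes, 54.8% higher and 5.67% lower. In F/F this held for 6 of 10, beside 70.5% of all genes, 64.4% higher and 6.09% lower. Rescaled, the ranges of 46.2% and 53.7% of all genes did not overlap.

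Markers of other cells moved with the vehicle groups. The sum of 7 hepatocyte genes, mostly Alb and Apoa1, was 66672 to 87499 TPM in W/W, 56060 to 64246 TPM in W/F livers and 33217 to 36662 TPM in F/F, so its mean was 1.30-fold and 2.19-fold lower. All 6 cholangiocyte markers were called higher in both mutants, and their sum, mostly Spp1, went from 54.0 to 61.5 TPM in W/W to 1163 to 1591 TPM in W/F livers and 2909 to 3556 TPM in F/F. The median of the 6 differed by 2.09 (log2) in W/F and by 3.48 in F/F, a smaller change than that of the sum. Of 6 macrophage markers 5 were called higher and 1 lower in each mutant, with sums of 217 to 380 TPM in W/W, 2989 to 3796 TPM in W/F livers and 3523 to 4524 TPM in F/F. All 6 stellate cell markers were called higher in deposited TPM, and in F/F 4 higher and 1 lower after rescaling, with sums of 89.0 to 141 TPM, 518 to 703 TPM and 887 to 1064 TPM. Other lists moved less evenly: the endothelial sum was 58.4 to 67.9 TPM in W/W, 41.8 to 56.1 TPM in W/F livers and 58.5 to 93.0 TPM in F/F, and the periportal sum 2249 to 2759 TPM, 2318 to 2700 TPM and 1414 to 2484 TPM. The pericentral sum, mostly Cyp2e1, was 10960 to 12499 TPM in W/W, 2995 to 4725 TPM in W/F livers and 1557 to 3489 TPM in F/F, without overlap between W/W and the mutants. Of 5 pericentral markers 3 were called lower and 1 higher in W/F, and 4 lower and 1 higher in F/F. Of 5 periportal markers 2 were called lower and 1 higher in W/F, and 3 lower and 1 higher in F/F. Bile duct cells are known to express Slc51b and Abcc3 too. In bulk RNA fewer cells of a type and less RNA per cell cannot be told apart. The part of these shifts in the transporter differences was not tested. The mean of Slco1b2 was 1.88-fold lower in W/F and 2.08-fold lower in F/F, the first a larger and the second a smaller ratio than that of the hepatocyte sum, while the ratios of Slc10a1 and Slco1a1 were larger in both.

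**Figure D3:**
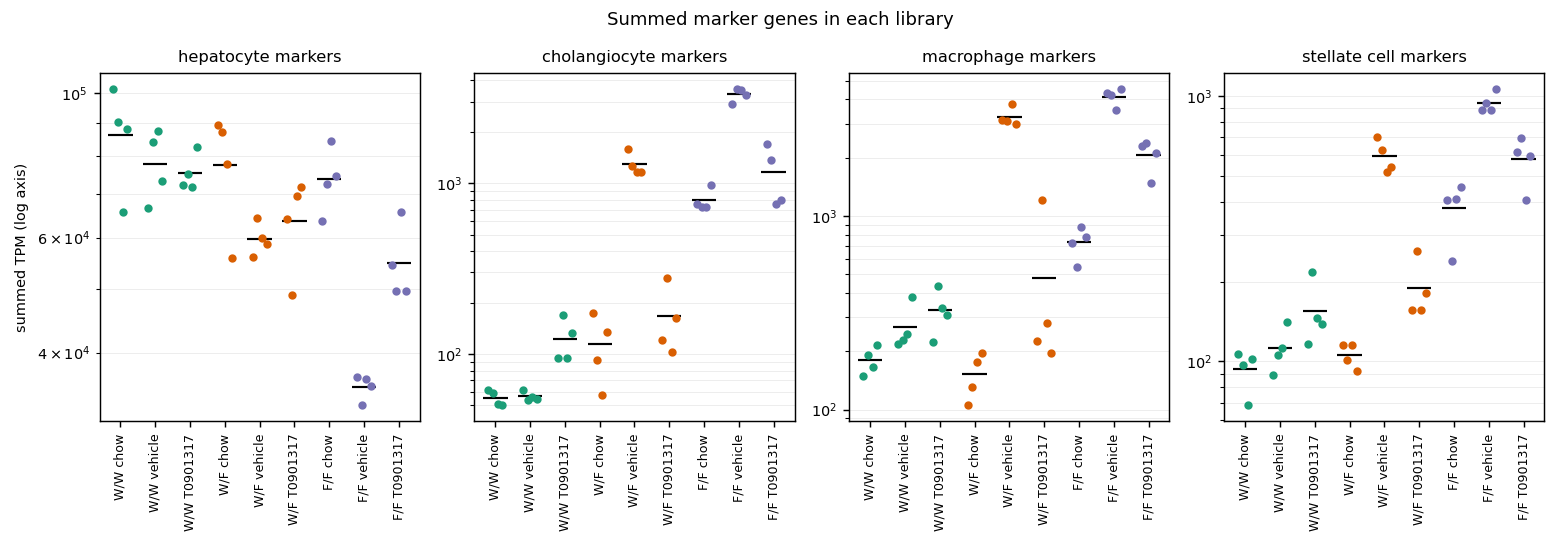
Summed deposited TPM (log axis) of marker genes of hepatocytes, cholangiocytes, macrophages and stellate cells in each library of the 9 groups; black lines are means of 4. The W/F and F/F vehicle libraries lie above all W/W libraries for the last 3 lists, and the F/F vehicle libraries are lowest for hepatocyte genes.

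Under T0901317 Slco1a1 was lower and Abcc4 higher than on vehicle in W/W, and the reverse in W/F. In W/W Slco1a1 went from the values above to 50.9, 24.6, 96.3 and 56.9 TPM, without overlap (-1.72 ± 0.40, adjusted p = 0.00378, a mean 3.04-fold lower). Abcc4 was at 4.47, 7.29, 4.69 and 5.85 TPM, also without overlap (1.93 ± 0.28, adjusted p = 1.33e-05, a mean 7.79-fold higher). These were the 2 members called of 10, with 10.8% of all genes called. Both held after rescaling (background 13.6%), where Slc51b was called as well (1.27, against 1.22 with adjusted p = 0.0708 in deposited TPM). Its values were 3.39, 3.51, 4.58 and 1.95 TPM, all above the W/W vehicle range. Ranges did not overlap for 4 of 10 members, beside 16.5% of all genes, 12.1% higher and 4.42% lower. Slc10a1 measured 920, 630, 1015 and 966 TPM, a range that overlapped vehicle (0.31, 95% interval -0.12 to 0.74). The 6 cholangiocyte markers summed to 94.3 to 170 TPM here against 54.0 to 61.5 TPM on vehicle, with 1 of 6 called, Spp1. Whether that bears on Abcc4 was not tested.

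In W/F the 3 uptake genes rose and both inducible exporters fell under T0901317. Slc10a1 reached 729, 498, 697 and 706 TPM (2.16 ± 0.21, adjusted p = 9.6e-10), all above the W/F vehicle livers and, except for replicate 2, within the W/W vehicle range. Slco1a1 reached 72.8, 27.5, 147 and 171 TPM (4.43 ± 0.40, adjusted p = 2.31e-10), a mean 33.4-fold higher than on vehicle. Slco1b2 reached 362, 337, 410 and 422 TPM (0.57 ± 0.17, adjusted p = 0.00373). Each of the 3 was free of overlap with vehicle, in a comparison where that held for 57.1% of all genes, 5.49% higher and 51.6% lower. Abcc4 dropped to 1.47, 5.52, 1.72 and 1.41 TPM (-1.98 ± 0.28, adjusted p = 5.74e-07) and Slc51b to 0.624, 3.41, 0.916 and 2.01 TPM (-2.32 ± 0.44, adjusted p = 3.19e-05). In both exporters W/F T0901317 replicate 2 was the highest of its group, and it was the lowest for Slc10a1, Slco1a1 and Slco1b2. That library also had the highest macrophage sum of its group, 1216 TPM against 196 to 278 TPM in the other 3. All 5 calls held without it and after rescaling.

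Of the 10 members 8 were called in W/F with T0901317, 3 higher and 5 lower, beside 65.9% of all genes, 6.59% higher and 59.3% lower. Abcb4 (-0.78), Abcc2 (-0.64) and Atp8b1 (-0.69) made up the other lower calls, and none of them was called after rescaling (-0.19, -0.04 and -0.14). Abcc3 (0.21, not called) became a higher call (0.81), and Abcb11 turned from -0.07, not called, to 0.53, called. Rescaled, 7 members were called, 5 higher and 2 lower, beside 50.8% of all genes, 23.5% higher and 27.3% lower. The comparison shares its W/F vehicle libraries with that of W/F against W/W on vehicle, so the 2 sets of values are not independent. The cholangiocyte sum was 102 to 278 TPM and the macrophage sum 196 to 1216 TPM here, both below the W/F vehicle ranges. The pericentral sum was 10736 to 13881 TPM against 2995 to 4725 TPM on vehicle, a mean 3.44-fold higher, beside 4.50-fold for Slc10a1. Of its 5 markers 3 were called higher and 1 lower. The part of these shifts in the differences was not tested.

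In F/F only Slc10a1 was called, at 215, 263, 390 and 206 TPM under T0901317 (1.35 ± 0.21, adjusted p = 3.02e-05), 1 of 10 members beside 35.1% of all genes called and 3.95% of all genes called higher. No F/F liver reached the W/W or W/F ranges of Slc10a1 under T0901317. Slco1a1 measured 5.32, 9.03, 5.67 and 5.32 TPM, above the F/F vehicle range but far below the other genotypes (0.82, 95% interval 0.01 to 1.63, adjusted p = 0.106). Abcc4 at 4.50, 5.43, 5.67 and 10.7 TPM (0.13, interval -0.45 to 0.71) and Slc51b at 20.3, 12.96, 3.35 and 11.4 TPM (-0.78, interval -1.67 to 0.11) overlapped vehicle. Ranges did not overlap for 4 of 10 members, beside 33.3% of all genes, 4.11% higher and 29.2% lower. Rescaling gave 5 calls, all higher, beside 16.4% of all genes, 8.28% higher: Slc10a1 (1.62), Slco1b2 (0.63), Abcb11 (0.65), Abcc2 (0.65) and Abcc3 (0.61). In deposited TPM these last 4 had differences of 0.37, 0.39, 0.39 and 0.35. The hepatocyte sum was 49626 to 65620 TPM under T0901317 against 33217 to 36662 TPM on vehicle. The mean cholangiocyte sum was 2.87-fold lower, the macrophage sum 1.99-fold lower and the pericentral sum 2.08-fold higher than on vehicle. All 6 cholangiocyte markers were called lower, and 4 of them after rescaling. Of 6 macrophage markers 3 were called lower and 1 higher, but 1 lower and 1 higher after rescaling. Of 5 pericentral markers 2 were called higher and 1 lower. The part of these shifts was not tested.

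**Figure D4:**
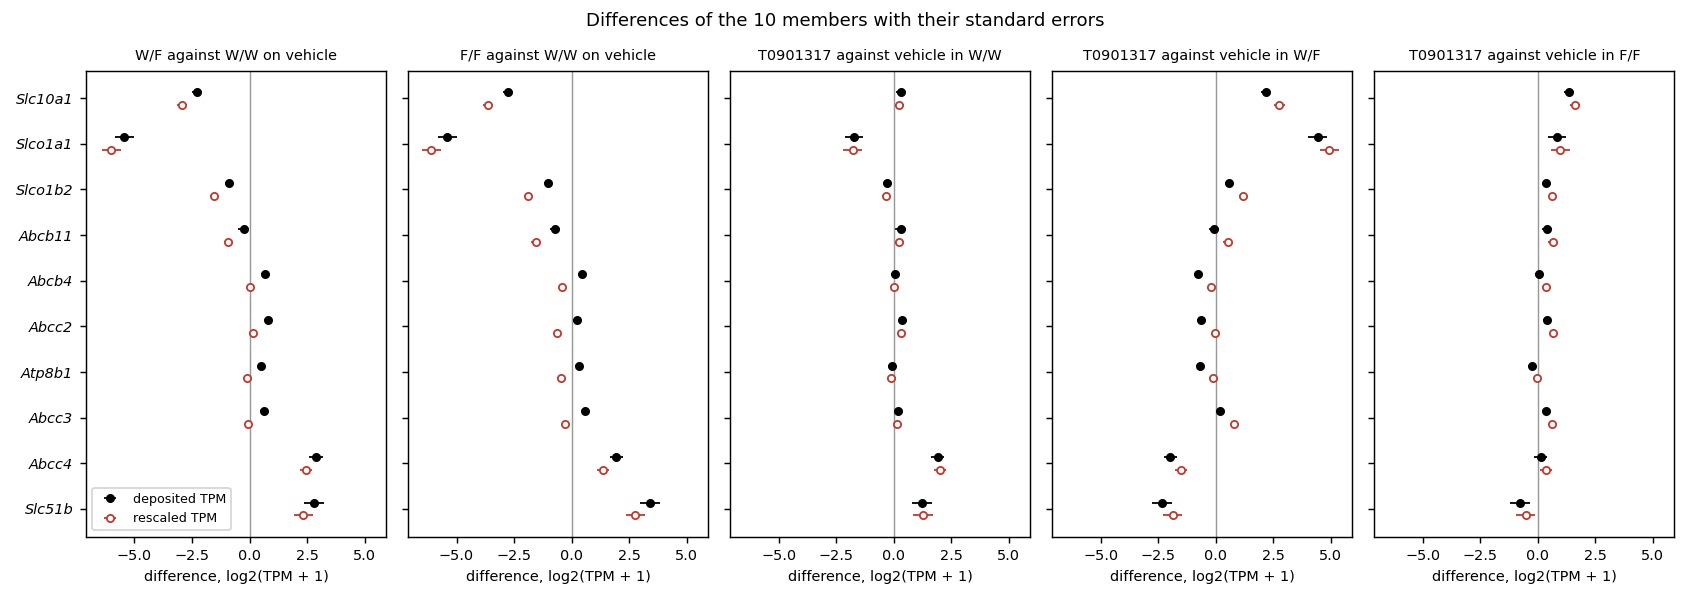
Differences of the 10 members in log2(TPM + 1) with standard errors, in deposited TPM (filled) and rescaled TPM (open), for the mutants against W/W on vehicle and for T0901317 against vehicle in each genotype (4 against 4 libraries). Slco1a1 lies near -5.4 in both vehicle comparisons and at -1.72, 4.43 and 0.82 under T0901317 in W/W, W/F and F/F.

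The difference between genotypes in the response to T0901317 was itself tested. For W/F against W/W 8 of 10 members were called (58.5% of all genes), and 5 of them were called with the same sign after rescaling: Slco1a1 (6.15 ± 0.56), Slc10a1 (1.85 ± 0.30), Slco1b2 (0.86 ± 0.24), Abcc4 (-3.91 ± 0.40) and Slc51b (-3.54 ± 0.62). For F/F against W/W 5 of 10 were called (30.4% of all genes), the same 5 genes in the same directions: Slco1a1 (2.54 ± 0.56), Slc10a1 (1.05 ± 0.30), Slco1b2 (0.65 ± 0.24), Abcc4 (-1.79 ± 0.40) and Slc51b (-2.001 ± 0.62). Both tests share the W/W libraries. The F/F value of Slc51b was not called without F/F T0901317 replicate 3 (-1.54), and that of Slco1b2 was lost without F/F T0901317 replicate 2 or 3, F/F vehicle replicate 2 or 3, W/W T0901317 replicate 1 or 2 or W/W vehicle replicate 2, 3 or 4 (0.51 to 0.64).

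Between W/F and W/W livers under T0901317 few members were called, although the means of 5 differed by 1.53-fold or more: Slco1a1 and Abcc3 were higher in W/F, Abcb11, Abcc4 and Slc51b lower. Only Abcc3 (0.61 ± 0.16, adjusted p = 0.0101) and Abcc4 (-1.02 ± 0.28, adjusted p = 0.0178) were called, 2 of 10 beside 9.88% of all genes. Ranges did not overlap for 1 of 10, beside 15.1% of all genes. Abcc3 lay at 194, 259, 247 and 254 TPM in W/F livers and 127, 165, 167 and 162 TPM in W/W, without overlap and at 0.63 after rescaling, although the call was lost without W/W T0901317 replicate 1 (0.52). That of Abcc4 was lost without W/F replicate 1, 3 or 4 or W/W replicate 2 (-0.88 to -0.94). Slco1a1 (0.71, not called) was called without W/F replicate 2 (1.24), and Abcb11 (-0.63, not called) without W/F replicate 4 (-0.75) or W/W replicate 2 (-0.78) and after rescaling (-0.62). F/F livers remained lower than W/W in Slc10a1 (-1.74 ± 0.21, adjusted p = 5.82e-08) and Slco1a1 (-2.86 ± 0.40, adjusted p = 5.15e-07) in both scalings. In all 6 of 10 were called there, 3 in each direction, beside 63.2% of all genes, 56.3% higher and 6.96% lower. Rescaled, 5 were called, all lower, beside 46.8% of all genes, 24.4% higher and 22.4% lower. These took in Slco1b2 (-0.90, adjusted p = 5.11e-05, against -0.38, not called) and Atp8b1 (-0.36, against 0.12, not called). Abcb11 was lower as well (-0.62, and -1.14 rescaled), but its call was lost without F/F replicate 2 or W/W replicate 3 or 4 (-0.55 in each). Abcb4 (0.45), Abcc3 (0.72) and Slc51b (1.41) were called higher in deposited TPM only, with -0.07, 0.20 and 0.97 rescaled, and the Abcb4 call was lost without F/F replicate 4 (0.34) or W/W replicate 2 (0.39). Against W/F under T0901317, F/F was lower in Slc10a1 (-1.32) and Slco1a1 (-3.57) and higher in Abcc4 (1.18) and Slc51b (2.15) in both scalings. Those are 4 of the 6 members called there, beside 62.6% of all genes, the other 2 being Abcb4 (0.63, and 0.10 rescaled) and Abcc2 (0.45, and -0.08 rescaled), the latter lost without W/F replicate 1 (0.37). Called lower after rescaling, and not called in deposited TPM, were Slco1b2 (-0.86), Abcb11 (-0.52) and Abcc3 (-0.43). Under T0901317 the cholangiocyte sum was 757 to 1697 TPM in F/F, 94.3 to 170 TPM in W/W and 102 to 278 TPM in W/F. The macrophage sum was 1488 to 2379 TPM in F/F, 222 to 433 TPM in W/W and 196 to 1216 TPM in W/F. The pericentral sum was 3358 to 7409 TPM in F/F, 8067 to 10019 TPM in W/W and 10736 to 13881 TPM in W/F. Of its 5 markers 4 were called lower and 1 higher in F/F than in W/W, and 4 lower and 0 higher than in W/F. F/F thus stood apart from both other genotypes in all 3 sums, and their part in the differences was not tested. W/F and F/F differed less on vehicle, where Abcc2 (-0.57) and Abcc4 (-0.94) were called, 2 of 10 beside 21.3%. Neither call survived the omission of each library: Abcc2 was lost without F/F replicate 1 (-0.49) or W/F replicate 2 (-0.45), and Abcc4 without F/F replicate 2 (-0.84) or W/F replicate 2 (-0.78) or 3 (-0.81). After rescaling Slc10a1 (-0.71) and Abcb11 (-0.65), not called in deposited TPM, were also called lower in F/F.

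On chow no member was called between W/F and W/W. With limma 0 of 10 members were called, beside 0.487% of all genes, and 2 had an unadjusted p under 0.05: Abcb4 (0.37) and Abcc4 (-0.66). Abcc4 measured 0.607, 0.700, 0.667 and 0.590 TPM in W/F and 1.58, 1.06, 2.46 and 1.47 TPM in W/W, a mean 2.56-fold lower. It was the only member whose ranges did not overlap, 1 of 10 beside 3.52% of all genes. None was called under any alternative. In F/F on chow Abcb4 stood out, at 150, 88.2, 160 and 178 TPM against 62.9, 51.2, 58.2 and 65.0 TPM in W/W. The ranges did not overlap, and the difference was 1.22 ± 0.17 (adjusted p = 2.21e-06), 0.85 rescaled. F/F replicate 2, the lowest of the 4, was the lowest of its group for all members but Slco1a1 and Atp8b1. Slc10a1 was lower in F/F (655, 342, 485 and 397 TPM against 916, 656, 580 and 852 TPM, -0.69 ± 0.21, adjusted p = 0.00838), with overlapping ranges that separated after rescaling (-1.08). Slco1a1 was lower too (162, 118, 58.4 and 64.6 TPM against 239, 241, 191 and 215 TPM, -1.25 ± 0.40, adjusted p = 0.0116), without overlap, a call lost without F/F replicate 3 (-1.03). Slc51b measured 7.42, 1.38, 6.40 and 9.48 TPM in F/F and 0.242, 3.35, 0.193 and 1.33 TPM in W/W, the latter from 1 to 18 recovered reads (1.67 ± 0.44, adjusted p = 0.00261). The ranges overlapped, and the rescaled value was 1.43, still called. Ranges did not overlap for 2 of the 10 members, beside 37.4% of all genes (27.8% of all genes after rescaling). Of the 10 members 5 were called, 3 higher and 2 lower, beside 46.7% of all genes, 43.0% higher and 3.65% lower. After rescaling 8 were called, 2 higher and 6 lower, beside 29.8%, 16.1% higher and 13.8% lower. The 4 lower calls that rescaling added were Abcb11 (-0.71), Slco1b2 (-0.51), Abcc2 (-0.72) and Atp8b1 (-0.64). The fifth call in deposited TPM, Abcc3 (0.39), was lost after rescaling (0.01) and without F/F replicate 1, 3 or 4 or W/W replicate 2 or 3 (0.29 to 0.40). In F/F on chow the cholangiocyte sum was 721 to 982 TPM against 50.1 to 61.6 TPM in W/W. The macrophage sum was 547 to 880 TPM against 148 to 215 TPM and the stellate sum 240 to 453 TPM against 68.3 to 107 TPM. None of these ranges overlapped. Of 5 pericentral markers 4 were called higher and 0 lower in F/F, and of 5 periportal markers 1 higher and 3 lower. The part of these shifts was not tested. Against W/F on chow F/F was called for 4 of 10 members, beside 41.4%: Abcb4 (0.85), Slco1a1 (-1.46), Slc51b (1.62) and Abcc4 (0.85), the last not after rescaling (0.66), nor without F/F replicate 3 (0.73) or 4 (0.74). Rescaling added lower calls for Slc10a1 (-0.86), Slco1b2 (-0.63) and Abcc2 (-0.64), none of them called in deposited TPM. In deposited TPM Slc10a1 was called lower without F/F replicate 1 (-0.68) or W/F replicate 4 (-0.62), and Slco1b2 without F/F replicate 1 (-0.45).

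Against chow, 3 members were called on the MASH diet with vehicle in W/W and 8 in each mutant genotype, with Abcb11 lower in all 3 genotypes. In W/W 3 of 10 were called, all lower and in both scalings, beside 12.9% of all genes (10.3% lower), or 15.4% (8.42% lower) rescaled: Abcb11 (305, 385, 311 and 417 TPM on chow, -0.80 ± 0.22, adjusted p = 0.016), Abcc2 (240, 199, 179 and 188 TPM on chow, 104, 148, 112 and 149 TPM on the diet, -0.66 ± 0.16, adjusted p = 0.00753) and Atp8b1 (11.9, 18.3, 19.3 and 17.5 TPM on chow, 6.44, 12.1, 10.9 and 12.6 TPM on the diet, -0.64 ± 0.16, adjusted p = 0.00848). Among these 3 genes only Atp8b1 had overlapping ranges, in a comparison where the ranges of 15.8% of all genes did not overlap. W/W vehicle replicate 1 had the lowest value of its group for all 3 genes, and without it only Abcc2 was called (Abcb11 -0.58, Atp8b1 -0.44). Abcb11 was also lost without W/W chow replicate 2 (-0.76) or 4 (-0.72), and the 3 calls were lost in a fit of these 2 groups alone. Abcc4, not called, lay at 1.06 to 2.46 TPM on chow and 0.450 to 0.866 TPM on the diet, without overlap. With a pseudocount of 0.1 limma called it lower (-1.07, adjusted p = 0.0475). The uptake genes of W/W differed from chow by -0.07 (Slc10a1, 95% interval -0.51 to 0.36), -0.37 (Slco1a1, -1.18 to 0.45) and -0.01 (Slco1b2, -0.35 to 0.34). In W/W the mean cholangiocyte sum was 1.02-fold that on chow, the pericentral sum 1.63-fold higher and the periportal sum 1.54-fold lower, and their part was not tested. Of 5 pericentral markers 2 were called higher and 1 lower, and of 5 periportal markers 0 higher and 2 lower.

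In W/F and F/F the diet groups differed from chow in all 3 uptake genes. Slc10a1 was lower by -2.16 in W/F and by -2.16 in F/F, Slco1a1 by -6.01 and -4.52, and Slco1b2 by -1.06 and -0.91. Abcb11 was lower by -0.82 and -1.18. Abcc4 was higher by 2.95 and 1.16 and Slc51b by 2.62 and 1.62. These 6 genes were called in both genotypes and both scalings, among 8 of 10 members in W/F (61.0% of all genes) and the same 8 of 10 in F/F (55.8%). Rescaled, 6 were called in W/F (54.8%) and 9 in F/F (47.0%). Abcb4 was 0.43 higher in W/F, a call lost on rescaling (-0.07) and without any of W/F chow replicates 1 (0.37) and 4 (0.32) and vehicle replicates 2 (0.36) and 3 (0.42), whereas in F/F it was lower in both scalings (-0.65, and -0.996 rescaled). Abcc3 was higher by 0.59 and 0.41 in deposited TPM and by 0.09 and 0.07 rescaled, neither of these called. Its F/F call was lost without F/F chow replicate 1 (0.40) or 2 (0.24) or F/F vehicle replicate 4 (0.36). Against chow the mean cholangiocyte sum was 11.3-fold higher in W/F and 4.17-fold in F/F, and the macrophage sum 21.4-fold and 5.64-fold. All 6 cholangiocyte markers were called higher in both, with medians of 2.08 and 1.77 (log2). The hepatocyte sum was 1.30-fold and 2.08-fold lower, and the pericentral sum 2.24-fold and 3.31-fold lower. The part of these shifts was not tested.

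Tested as differences of responses, the diet separated W/F from W/W in 7 of 10 members (54.6% of all genes) and F/F from W/W in 8 of 10 (46.0%). Slc10a1 (-2.08 and -2.09), Slco1a1 (-5.65 and -4.15), Slco1b2 (-1.05 and -0.90) and Abcc4 (3.55 and 1.76) were called in both genotypes and both scalings. Slc51b was called in both genotypes (2.74 and 1.73), in F/F not after rescaling (1.34), nor without F/F chow replicate 2 (1.27) or W/W chow replicate 2 (1.35). Abcb4 was called in F/F (-0.77, -1.24 rescaled) and not in W/F (0.31), and the W/F and F/F responses were not tested against each other.

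Other genes of bile acid handling were followed as 4 lists. Their counts against W/W on vehicle stand beside 61.6% of all genes called higher and 6.83% lower in W/F, and 69.3% higher and 7.13% lower in F/F. Rescaled, these shares are 27.8% and 25.3% in W/F and 31.3% and 27.7% in F/F. Of 14 genes of bile acid synthesis and conjugation 12 were called lower and 0 higher in W/F against W/W on vehicle, and 14 lower in F/F, with medians of -0.79 and -1.36 beside 0.52 and 0.70 for all genes. Rescaled, all 14 were called lower in both, with medians of -1.44 and -2.21. Cyp8b1, which makes cholic acid, led in both (-3.45 and -3.92), followed by Cyp7b1 of the alternative pathway (-2.71 and -2.67). The third was Slc27a2 (-1.51), an acyl-CoA synthetase, in W/F and Cyp2c70 (-2.39), which makes muricholic acids in mice, in F/F. Cyp7a1, the rate-limiting enzyme of the classical pathway, was called in F/F (-1.70 ± 0.45, adjusted p = 0.00107) and not in W/F (-0.48), but in both after rescaling (-2.51 and -1.12). Under T0901317 12 of the 14 were called higher in W/F, beside 6.59% of all genes, and 10 in F/F, beside 3.95%, none lower, with medians of 0.70 and 0.66. Rescaled, 14 were called higher in W/F (23.5% of all genes) and 12 in F/F (8.28%). In W/W 2 were called higher and 2 lower, beside 10.8% of all genes in either direction, and Cyp7a1 was among the higher (1.40). Cyp7a1 averaged 102 ± 21.0 TPM in W/W and 21.6 ± 13.96 TPM in F/F on chow (-2.36, adjusted p = 0.00011), where 7 of the 14 were called lower and 0 higher, beside 3.65% of all genes lower, and 9 lower rescaled, beside 13.8%. In W/F on chow 1 of the 14 was called, Cyp2c70 (-1.43), beside 0.487% of all genes.

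**Figure D5:**
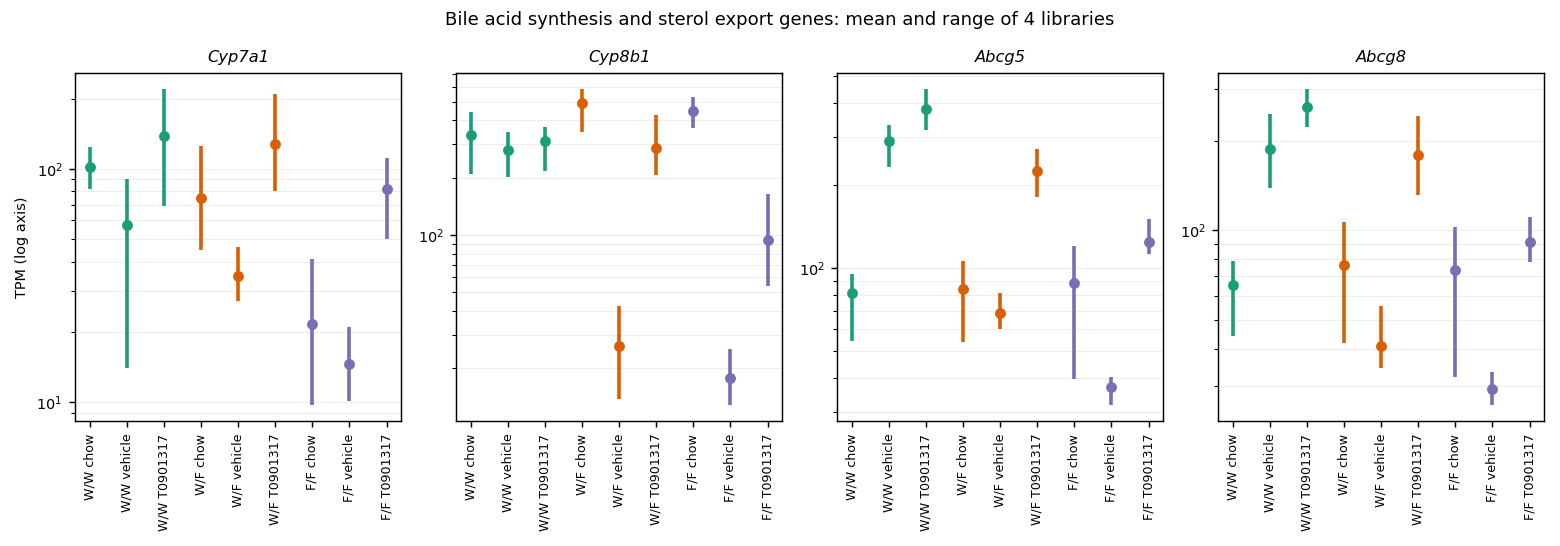
Mean (point) and range (bar) over 4 libraries of deposited TPM (log axis) of Cyp7a1 and Cyp8b1 (bile acid synthesis) and of Abcg5 and Abcg8 (sterol export) in the 9 groups. Cyp8b1 falls to means of 26.2 and 17.8 TPM in the W/F and F/F vehicle groups, and Abcg5 and Abcg8 are highest in W/W under T0901317.

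Of 19 other transporters 18 were tested. On vehicle 7 were called higher and 4 lower in W/F, and 8 higher and 7 lower in F/F, against W/W. Rescaled, 6 were higher and 9 lower in W/F, and 5 higher and 8 lower in F/F. Abcg5 and Abcg8, the paired sterol exporters of the canaliculus and known LXR targets, were among the lower: Abcg5 averaged 290 ± 41.4 TPM in W/W, 69.1 ± 8.90 TPM in W/F livers and 37.2 ± 3.80 TPM in F/F (-2.05 and -2.92), and Abcg8 differed by -2.18 and -2.62. Both were also called lower after rescaling, Abcg5 by -2.70 and -3.76. T0901317 raised Abcg5 in W/F (1.69) and F/F (1.71), with 0.39, not called, in W/W. The drug efflux pump Abcb1a (2.77 and 2.73) and the uptake carrier Slco1a4 (2.65 and 3.17) were higher in both mutants on vehicle and in both scalings. Slco1a4 was thus higher than in W/W on vehicle where its relative Slco1a1 was lower, but W/W on vehicle was its lowest group. On chow and vehicle, in that order, it averaged 24.2 and 8.35 TPM in W/W, 42.7 and 54.4 TPM in W/F and 59.8 and 77.9 TPM in F/F. Tmem30a, the subunit that FIC1 needs to leave the endoplasmic reticulum, differed on vehicle by -0.15 in W/F and -0.13 in F/F, neither called, but by -0.80 and -0.97, both called, after rescaling.

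Of 14 regulators 13 were tested, and their calls turned with the scaling: on vehicle 4 higher and 0 lower in W/F, but 1 higher and 9 lower rescaled. In F/F 3 were higher and 5 lower, and 1 higher and 9 lower rescaled. Nr1h4 averaged 154 ± 16.7 TPM in W/W, 144 ± 21.4 TPM in W/F livers and 124 ± 11.2 TPM in F/F on vehicle (-0.09, not called, and -0.30, adjusted p = 0.0494), with -0.75 and -1.15, both called, after rescaling. Nr0b2, the FXR target SHP, was lower in F/F (-1.26) and not called in W/F (-0.73), but called in both after rescaling (-2.09 and -1.38). Nfe2l2, the oxidative stress factor NRF2 and a known inducer of MRP genes, was higher in both mutants on vehicle in both scalings (1.21 and 1.08, or 0.56 and 0.24 rescaled). Under T0901317 it was higher in W/W (0.67) and lower in W/F (-1.31).

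Of 14 genes of the canalicular scaffold, tight junction and trafficking 10 were called higher and 2 lower in W/F, and 11 higher and 2 lower in F/F, on vehicle. The shares higher, 10 and 11 of 14, are near the 61.6% and 69.3% of all genes. Rescaled, 4 were higher and 4 lower in each. Ezr, the linker ezrin, which cholangiocytes and other epithelia express rather than hepatocytes, led (2.58 and 3.33), and the syntaxin Stx3 was also higher (1.26 and 1.33). Both were also called higher after rescaling. The cholangiocyte sums given above moved with them, and their part was not tested.

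Across the 36 libraries in rescaled TPM the 3 uptake genes followed each other, with Pearson r of 0.954 between Slc10a1 and Slco1b2, 0.945 between Slco1a1 and Slco1b2 and 0.903 between Slc10a1 and Slco1a1. Slc51b ran against them, at r = -0.851 with Slco1b2. The points share libraries and fall into the 9 groups, so these values describe the group pattern. Among all tested genes the 2 most like each member by the same measure were Car5a (0.980) and Upb1 (0.977) for Slc10a1, Adh6-ps1 (0.979) and Hao1 (0.978) for Slco1a1, Ghr (0.975) and Tdo2 (0.968) for Slco1b2, and Ceacam1 (0.953) and Ppm1b (0.951) for Abcb11. For Slc51b they were Setd7 (0.928) and Sparc (0.921), for Abcc4 Chil1 (0.894) and Cyp2a4 (0.888), for Atp8b1 Ap1g1 (0.875) and Adam9 (0.872), for Abcc3 Ephx1 (0.861) and D630039A03Rik (0.808), and for Abcc2 Cdc14b (0.860) and Mug-ps1 (0.850). Abcb4 had no close partner, with Impad1 (0.743) and Tenm3 (0.669) nearest.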

How the data were processed

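Per the submitters' processing notes, reads were trimmed with Trimmomatic 0.36, aligned to GRCm38 with STAR 2.5.2b and counted per gene with featureCounts of Subread 1.5.2. The authors deposited 1 table of TPM, which sum to 1000000 in each of the 36 libraries. How counts became TPM and whether strand was used are not given in the sources used here. Groups followed the labels. The 16638 of 49315 genes that reached 1 TPM in 4 or more libraries were tested with limma 3.58.1 in R 4.3.3 on log2(TPM + 1), with 1 mean per group, a variance trend, all 36 libraries and 19 contrasts, and Benjamini-Hochberg adjustment over all tested genes in each contrast. The script was tested on simulated data first. A fold change on this scale understates the change of low genes.

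The rescaled TPM were divided by median-of-ratios size factors from 13950 genes (0.692 to 1.47). Other alternatives were a pseudocount of 0.1, no filter, a filter at 5 TPM, the replicate number as a block, a fit restricted to the compared groups, and omission of each library. Depth was recovered from the spacing of low TPM and gene length (GENCODE M21), with 93.7 to 95.7% of low values within 0.1 of a whole read. Library totals recovered this way limit the lowest genes, since values of a few reads carry counting error. The members and gene lists were chosen with earlier results of these data known. All 10 members are named whatever their values. From each companion list, the text names at most the 3 largest differences among called genes, besides Slc51a, Tmem30a, Abcg5, Abcg8, Nr1h4, Nr0b2 and Cyp7a1. The 2 genes most like a member had the highest Pearson r over the 36 libraries.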

Additional observations from a re-analysis of the deposited data

Results flagged for a closer look

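In 6 of the 90 sets of 4 libraries (10 genes in 9 groups) the highest or lowest library lay apart from the other 3 by more than Dixon's 95% limit, and chance gives about 1 in 20. Abcb11 was lowest in F/F chow replicate 2 (191 TPM) and in F/F T0901317 replicate 2 (137 TPM). Slco1a1 was highest in that second library (9.03 TPM). W/F T0901317 replicate 2 was lowest for Slc10a1 (498 TPM) and highest for Abcc4 (5.52 TPM). Abcc3 was lowest in W/W T0901317 replicate 1 (127 TPM).

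The response to T0901317 differed between W/F and W/W, by limma's test of the difference, in Slco1a1 (6.15), Slc10a1 (1.85), Slco1b2 (0.86), Abcc4 (-3.91), Slc51b (-3.54), Abcc2 (-1.02), Abcb4 (-0.85) and Atp8b1 (-0.62). Abcc2 (-0.36), Abcb4 (-0.19) and Atp8b1 were not called after rescaling, and that of Atp8b1 was lost without W/F T0901317 replicate 1 (-0.51), W/F vehicle replicate 3 (-0.52) or W/W vehicle replicate 1 (-0.42). Between F/F and W/W the response differed in Slco1a1 (2.54), Slc10a1 (1.05), Slco1b2 (0.65), Abcc4 (-1.79) and Slc51b (-2.001).

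The difference between the MASH diet with vehicle and chow was itself different in W/F and W/W for Slco1a1 (-5.65), Slc10a1 (-2.08), Slco1b2 (-1.05), Abcc4 (3.55), Slc51b (2.74), Abcc2 (0.84) and Atp8b1 (0.81). Rescaled, Abcc2 (0.22) and Atp8b1 (0.24) were not called. For F/F and W/W it was different in Slco1a1 (-4.15), Slc10a1 (-2.09), Slco1b2 (-0.90), Abcb4 (-0.77), Abcc4 (1.76), Slc51b (1.73), Atp8b1 (0.60) and Abcc2 (0.56). Those of Atp8b1 and Abcc2 were not called after rescaling (0.17 and 0.09). Without 1 library at a time, 8 libraries ended the Atp8b1 call and 9 that of Abcc2, with lowest values of 0.40 (without W/W vehicle replicate 1) and 0.36 (without F/F chow replicate 2).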

How the results depend on the processing

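Of 190 differences (10 genes, 19 contrasts) 100 were called, 62 of them in every alternative and 78 without each library in turn. Rescaling mattered most. Under it 17 differences called in neither scaling turned direction, and so did 13 that were called in at least 1 scaling. These were Abcb11 with T0901317 in W/F (0.53), Abcb4 with the diet in W/F (-0.067), Abcc3 (-0.046) and Atp8b1 (-0.095) in W/F against W/W on vehicle, Abcb4 (-0.40), Abcc2 (-0.64), Abcc3 (-0.28) and Atp8b1 (-0.47) in F/F against W/W on vehicle, Abcb4 (-0.066) and Atp8b1 (-0.36) in F/F against W/W on T0901317, and Abcb11 (-0.52), Abcc2 (-0.077) and Abcc3 (-0.43) in F/F against W/F on T0901317. The rescaling itself takes away the shift of the median gene.

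The count of called transporters moved by more than 1.5 times under some alternative in 7 contrasts, and stayed within 1.5 times in the other 12. In F/F against W/F on vehicle the 2 became 1 with a pseudocount of 0.1, 4 rescaled, 1 with only the groups compared and 0 to 2 without 1 library. With T0901317 in F/F the 1 became 5 rescaled, 4 with only the groups compared and 1 to 2 without 1 library. In F/F against W/W on chow the 5 became 8 rescaled and 3 to 6 without 1 library. With the diet in W/W the 3 became 0 with only the groups compared, and 1 to 3 without 1 library. In W/F against W/W on T0901317 the 2 became 1 with only the groups compared and 1 to 3 without 1 library. The differences of response between F/F and W/W gave 3 to 5 (T0901317) and 5 to 8 (diet) without 1 library. Apart from the rescaling, the cause was not tested.

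No clear pairing by replicate number was seen, though these values cannot exclude it. Residuals of same-numbered libraries correlated between -0.17 and 0.30, and in no contrast was every pair above 0.1. In W/F against W/W on T0901317 they correlated at 0.05 to 0.30, and 5 libraries matched best with their own number. The same number, 5, did so in F/F against W/W on chow, where the correlations were -0.09 to 0.09. With the replicate block 9 transporters were called in W/F and 9 in F/F against W/W on vehicle, 3 in W/F against W/W on T0901317, 5 in F/F against W/F on chow and 7 for the diet response of F/F against W/W, and the other counts were as without it. Depth limits Slc51b most in its low groups, where it rests on as few as 1 read. Abcc4 had at least 27.9 recovered reads in each library.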
